A study of Mus musculus with 18 samples.

Results

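Chromatin accessibility was examined in lung endothelial cells (ECs) at the loci of gene families known for enzymes of DNA and histone methylation and of histone deacetylation. Not every member has such an activity. Regions were built by merging overlapping ATAC-seq peaks of all samples on chromosomes 1 to 19, X and Y, and those found in 2 or more of the 18 peak lists were kept, which gave 47338 consensus regions. A region was assigned to the gene with the nearest RefSeq transcription start site (TSS) to its midpoint on mm10. Regions were taken where that gene was a numbered member of the Kdm, Kmt, Hdac or Sirt families, Dnmt1 or a Dnmt3 gene, Tet1, Tet2 or Tet3, or Ezh1 or Ezh2. This gave 141 regions of 47338, at 51 of the 54 matching gene symbols. One of these symbols, Dnmt3aos, is an antisense transcript within Dnmt3a and encodes no enzyme. Of the 141 regions, 68 had a peak in all 18 lists and are called common regions here, out of 17432 common regions in all.

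The lists come from FVB mice that carried a Col1α1-GFP transgene, and the mice formed 4 groups. Young Sham (5 mice) and Young Bleo (4 mice) were 2 months old. Aged Sham (4 mice) and Aged Bleo (5 mice) were 18 months old. The Bleo groups received about 1 U/kg bleomycin, a drug that injures the lung and leads to fibrosis, through the trachea, the Sham groups received PBS the same way, and all lungs were taken at day 30. ECs were sorted as CD45-, EpCAM-, GFP- and CD31+ cells, so leukocytes, epithelial cells and collagen-expressing fibroblasts were gated out, and about 50000 cells entered each library. Both sexes were used and the labels do not give the sex of a mouse. A change in the mix of EC types and a change within each cell cannot be told apart in such sorted pools.

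DNA methyltransferases (Dnmt) place methyl groups on cytosines and TET dioxygenases oxidise them on the way to removal. Among histone enzymes, Ezh1 and Ezh2 are the catalytic subunits of Polycomb repressive complex PRC2, Kmt enzymes add and Kdm enzymes remove methyl groups on histone lysines, and Hdac and sirtuin (Sirt) enzymes remove acetyl groups. In the endothelium, Hdac7 is known for its role in vascular integrity and Sirt1 for its role in vascular ageing, and the Kdm6 demethylases remove the methyl mark that PRC2 places.

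The peak lists held 21050 to 40883 peaks, and the lowest number of fragments expected by chance at a peak, taken here as a measure of depth, ranged from 1.02 to 1.78 fragments. It reached 1.26 to 1.78 in Young Sham and 1.02 to 1.44 in Aged Sham. The list names carry a code (L6, L7 or L8) that is read here as the sequencing lane, although the labels do not say what it stands for. By this code, all Young Sham lists came from lane 8 and all Aged Bleo lists from lane 6. Young Bleo was split between lane 7 (3 mice) and lane 8 (1 mouse), and Aged Sham between lane 7 (3 mice) and lane 6 (1 mouse). Group and lane were therefore largely confounded. Of 10 EC marker promoters, 7 to 10 had a peak in each list, including Cdh5, Erg and Kdr in all 18. None of 7 leukocyte and 6 epithelial marker promoters had a peak in any list, and of 6 fibroblast and mural markers Pdgfra had one in all 18 lists while Col1a1, Col1a2, Acta2, Pdgfrb and Tcf21 had none.

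Sequences are shown for 6 regions on which the comparisons turned, from RefSeq GRCm38.p6 (mm10). Each covers up to 200 bases around the strongest summit, without bases of annotated exons, and is written 5′ to 3′ on the strand of its gene. Capitals mark matches, on either strand, to 4 motifs searched: CAGGAAG (the core bound by the endothelial factor ERG), TGANTCA (AP-1), TGTTTAC (FOX factors) and the NRF1 motif (GCGCA, then any base, then GCGC). None of the 4 motifs contains another. The first 3 regions passed the test of strength below and the last 3 the test of presence. The windows lie at chr10:62865294-62865493, minus strand (Tet1, intron), chr11:69418843-69419042, minus strand (upstream of Kdm6b), chr6:71632918-71633104, minus strand (Kdm3a promoter), chr12:3738961-3739160, plus strand (upstream of Dnmt3a, in an intron of Dtnb), chr17:56357674-56357873, plus strand (Kdm4b, intron) and chr6:91165257-91165456, plus strand (Hdac11, intron).
Tet1: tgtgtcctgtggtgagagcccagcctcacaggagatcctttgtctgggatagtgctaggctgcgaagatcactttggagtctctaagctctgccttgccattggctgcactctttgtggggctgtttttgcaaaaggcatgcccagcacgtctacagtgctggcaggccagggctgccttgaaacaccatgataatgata
Kdm6b: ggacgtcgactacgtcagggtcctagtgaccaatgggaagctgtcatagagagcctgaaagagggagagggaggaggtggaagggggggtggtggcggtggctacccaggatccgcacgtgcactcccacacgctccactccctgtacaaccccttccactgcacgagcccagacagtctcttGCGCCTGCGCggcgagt
Kdm3a: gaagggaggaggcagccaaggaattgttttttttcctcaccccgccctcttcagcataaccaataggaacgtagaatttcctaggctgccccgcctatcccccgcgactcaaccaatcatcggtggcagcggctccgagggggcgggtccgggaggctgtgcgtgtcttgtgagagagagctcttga
Dnmt3a: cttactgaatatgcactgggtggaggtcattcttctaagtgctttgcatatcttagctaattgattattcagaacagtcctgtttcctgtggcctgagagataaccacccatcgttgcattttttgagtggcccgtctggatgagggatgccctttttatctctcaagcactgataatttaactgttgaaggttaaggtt
Kdm4b: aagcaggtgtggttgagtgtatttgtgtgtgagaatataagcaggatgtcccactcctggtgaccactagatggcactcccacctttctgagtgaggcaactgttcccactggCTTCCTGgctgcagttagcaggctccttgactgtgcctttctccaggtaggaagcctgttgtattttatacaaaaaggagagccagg
Hdac11: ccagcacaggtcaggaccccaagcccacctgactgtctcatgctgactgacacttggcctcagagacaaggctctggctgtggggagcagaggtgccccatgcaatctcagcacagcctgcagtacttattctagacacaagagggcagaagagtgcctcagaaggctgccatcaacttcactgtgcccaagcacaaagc

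The Kdm6b window held 1 NRF1 match and the Kdm4b window 1 ERG core match, and no match was found in the other 4 windows. Of the 141 regions, 39 had their midpoint in a promoter, defined as 1000 bp before to 100 bp after any TSS, 65 in introns, 28 between genes, 5 in UTRs and 4 in other exons. In the 200 bp around the summits of the 39 promoter regions the median GC content was 67.5%, against 65.5% in all 10081 promoter regions, and NRF1 matches were present in 9 of 39 (23.1%, against 9.43% of all promoter regions). The ERG core was found in 1 of these 39 (2.56%, against 10.04%). Outside promoters, 22 of 102 regions held the ERG core (21.6%, against 22.7%), 11 held AP-1 (10.8%, against 10.3%) and 7 held FOX (6.86%, against 5.19%). FOX was found in 2 of the 39 promoter regions (5.13%, against 1.62%), AP-1 in 0 of 39 (against 3.00%), and NRF1 in 3 of the 102 others (2.94%, against 0.950%). These matches describe the letters in the windows and say nothing of binding.

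Most promoter regions of chromatin modifiers had a peak in every list, and most of their intronic and intergenic regions did not, as was so over the whole genome. A peak was present in all 18 lists at 32 of the 39 promoter regions (82.1%), 19 of the 65 intronic (29.2%) and 10 of the 28 intergenic regions (35.7%). For all consensus regions the share with a peak in every list was 79.2% in promoters, 21.5% in introns and 23.8% between genes, so that the member promoters were near the background. The strength of a region was measured in each list as the percentile, from 0 to 100, of its highest fold enrichment over local background among the common regions of that list, with an absent peak at 0. Strength is thus relative within a list and cannot show a change that all regions share. Peaks weaker than nearly all common regions also stand near 0. In the heat map of strength by family, the KDM, class IIa, class IV and sirtuin families hold some strong regions and a larger block of weak ones.

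**Figure D1:**
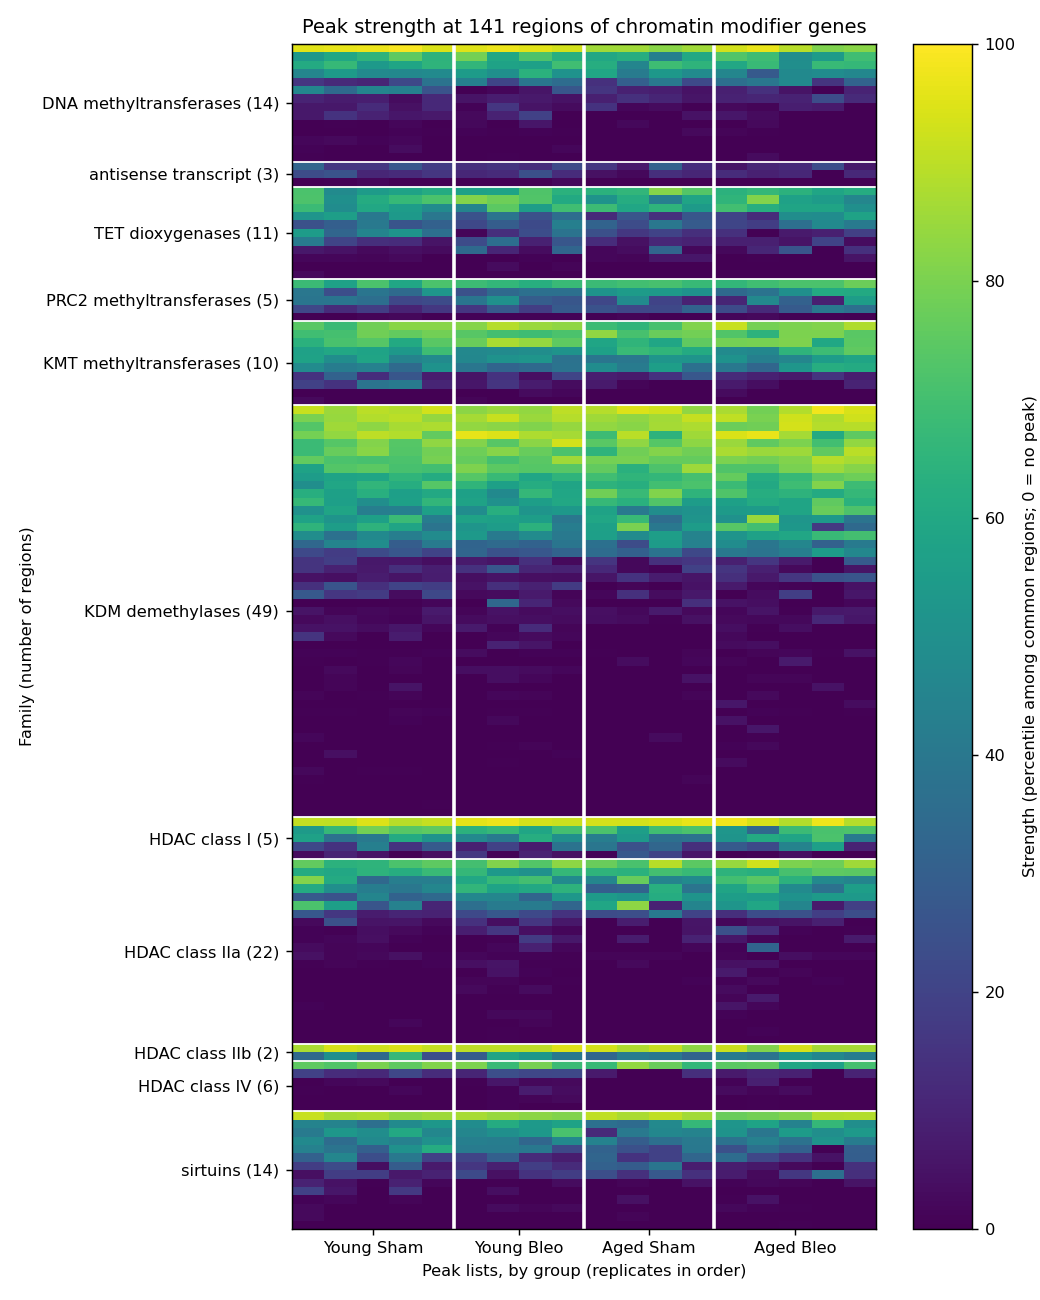
Strength at the 141 regions (rows, ordered within each family by mean strength) in the 18 peak lists (columns, by group), on a percentile scale from 0 (no peak) to 100. Strong rows are strong in all 4 groups, and the weak rows of the KDM and class IIa HDAC families hold most of the absent peaks.

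The number of the 141 regions with a peak followed the number called over the whole genome in each list. It was 92 to 116 in Young Sham, 97 to 119 in Young Bleo, 82 to 98 in Aged Sham and 74 to 119 in Aged Bleo, so that all groups overlapped. The mean share called was 75.3%, 77.3%, 64.01% and 69.6% in these 4 groups, and the share of all consensus regions was 71.9%, 75.1%, 59.2% and 62.9%. The lowest list, Aged Bleo replicate 4, had 74 of the regions called and was also the list with the fewest peaks.

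**Figure D2:**
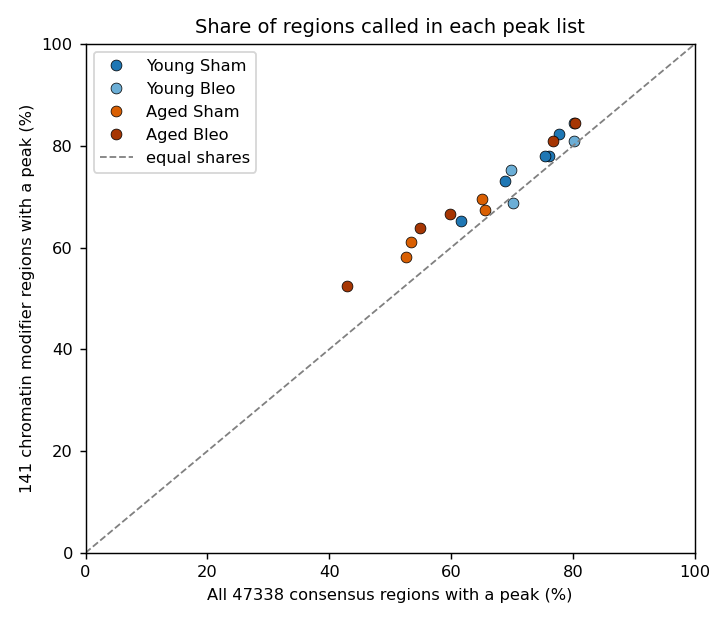
Share of the 141 chromatin modifier regions with a peak (vertical axis, %) against the share of all 47338 consensus regions with a peak (horizontal axis, %) in each of the 18 lists; the dashed line marks equal shares. In 17 lists the point lies above the line and in 1 Young Bleo list below it, and both shares are lowest in Aged Bleo replicate 4 (52.5% and 43.0%).

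Families differed in how evenly their regions were called. The 5 regions of Ezh1 and Ezh2 and the promoters of Hdac6 and Hdac10, the class IIb deacetylases, had a peak in every list. At the 14 DNA methyltransferase regions, 84.3% of region and list pairs had a peak in Young Sham, 76.8% in Young Bleo, 62.5% in Aged Sham and 62.9% in Aged Bleo. At the 22 regions of the class IIa deacetylases Hdac4, Hdac5, Hdac7 and Hdac9 the shares were 60.9%, 72.7%, 46.6% and 63.6%, and at the 6 regions of Hdac11 (class IV) 46.7%, 79.2%, 25% and 53.3%. The 49 KDM regions gave 72.7%, 73.98%, 61.2% and 67.8%, the 10 KMT regions 82%, 87.5%, 75% and 78%, the 11 TET regions 83.6%, 79.5%, 81.8% and 74.5%, and the 14 sirtuin regions 75.7%, 67.9%, 66.1% and 70%. The 3 Dnmt3aos regions gave 86.7%, 75%, 66.7% and 60%. Among the 5 class I regions, the Hdac8 promoter alone was missing from lists, 3 of the 5 in Aged Bleo.

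Strong regions at the TSS of Hdac1 and Sirt1 were shared by all groups. Hdac1, a class I deacetylase, had a strength of 91.3 ± 1.96 (SD, n = 5) in Young Sham, 94.5 ± 2.27 (n = 4) in Young Bleo, 94.4 ± 1.34 (n = 4) in Aged Sham and 93.3 ± 4.49 (n = 5) in Aged Bleo. The region centred 158 bp downstream of the Sirt1 TSS, in an exon, gave 87.1 ± 2.95, 83.8 ± 2.50, 88.6 ± 2.22 and 82.7 ± 5.34 in the same order. Both regions were strong, with means above 80, in all 4 groups.

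The maintenance methyltransferase Dnmt1 gave a strength of 61.1 ± 5.30, 62.4 ± 6.12, 60.4 ± 10.3 and 62.3 ± 7.86 in Young Sham, Young Bleo, then Aged Sham and Aged Bleo, and Tet2 gave 56.1 ± 8.41, 61.3 ± 13.3, 61.8 ± 6.21 and 59.8 ± 7.21. Ezh2 gave 65.6 ± 6.98, 66.3 ± 2.64, 69.1 ± 1.51 and 71.2 ± 4.12, and Ezh1, whose nearest region was centred 170 bp downstream of the TSS, gave 15.6 ± 4.47, 22.5 ± 6.44, 24.8 ± 4.68 and 27.9 ± 11.2. In the same order, Kmt2a gave 76.9 ± 6.17, 84.9 ± 3.07, 71.5 ± 6.83 and 83.98 ± 5.51 and Kdm1a, centred 129 bp downstream, gave 55.2 ± 9.52, 52.6 ± 8.54, 53.5 ± 13.5 and 55.99 ± 17.2. Hdac3 gave 49.6 ± 10.3, 49.9 ± 8.90, 42.8 ± 7.93 and 56.7 ± 11.3, Sirt3 44.96 ± 5.86, 41.4 ± 5.76, 37.7 ± 6.37 and 42.5 ± 5.64 and Sirt6 45.3 ± 5.96, 55.2 ± 5.54, 46.3 ± 14.5 and 54.1 ± 8.63. The groups overlapped at each of these genes, except that Young Bleo lay above Aged Sham at Kmt2a.

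Promoters of some members were weak or uncalled. At the Dnmt3a promoter region centred 186 bp upstream of a TSS, a de novo methyltransferase gene, strength was 8.19 ± 3.53, 6.20 ± 6.73, 4.92 ± 6.59 and 3.84 ± 3.66 with a peak in 17 lists. A wider region over another Dnmt3a TSS, centred 137 bp downstream and so just outside the promoter window (chr12:3806241-3808353), was named after its values were seen. It was common and also weak, with 8.25 ± 3.10, 6.30 ± 1.53, 9.72 ± 3.39 and 12.9 ± 5.82 in the same order. A peak at the Kdm6b promoter was called in 2 of 18 lists, both Aged Bleo, while regions farther upstream of Kdm6b were strong. No region lay in an Hdac9 promoter, and the region nearest to an Hdac9 TSS, 56132 bp downstream, had a peak in 3 lists. On the X chromosome, the promoters of Kdm5c and Kdm6a had strengths of 75.8 ± 5.30, 77.1 ± 4.23, 75.8 ± 7.19 and 84.6 ± 5.31 and of 73.98 ± 3.61, 76.7 ± 6.36, 77.8 ± 1.76 and 83.2 ± 4.43. On the Y chromosome, the promoter of Kdm5d was called in 3 of 5, 3 of 4, 0 of 4 and 2 of 5 lists in the same group order, at strengths of at most 14.98, and every list held 37 to 69 peaks on Y.

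Other promoters, named after their values were seen, were shared as well. The X-linked Hdac6, a class IIb deacetylase known for acting on tubulin, gave 91.9 ± 2.76, 91.3 ± 2.62, 89 ± 4.54 and 88.1 ± 5.00 in Young Sham, Young Bleo, then Aged Sham and Aged Bleo. Among demethylase genes, Kdm4c gave 89.5 ± 3.12, 85.4 ± 3.15, 90.1 ± 5.03 and 89.3 ± 7.18, Kdm1b 85.4 ± 3.75, 88.05 ± 2.92, 86.7 ± 3.29 and 88.8 ± 5.30 and Kdm4b 83.3 ± 5.94, 82.99 ± 1.53, 85.1 ± 2.41 and 85.5 ± 7.17. All 4 promoters thus stood at means above 80 in every group. Of the other methyltransferases that act at enhancers and promoters, Kmt2c gave 43.9 ± 6.28, 35.99 ± 3.28, 45.8 ± 8.47 and 49.8 ± 12.9 and Kmt2d 18.6 ± 9.94, 11.2 ± 7.84, 14.3 ± 9.28 and 10.2 ± 3.31. No strength difference passed at these 6 promoters in any comparison.

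A peak was called in fewer than 9 lists at 43 of the 141 regions (30.5%, against 33.5% of all consensus regions) and in at most 4 lists at 32 (22.7%, against 19%). Both shares were near the background. A single region was found at 25 genes, all regions were common at 24 genes, and no region was common at 6 (Dnmt3l, Hdac8, Hdac9, Kdm5d, Kmt2e and Sirt7). No region was assigned to Kdm4d, Kmt2b or Sirt2. The regions nearest to their TSS, 84, 390 and 132 bp away, had a peak in all 18 lists and lay nearer to Cwc15, Mir3569 and Nfkbib.

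Regions away from the TSS, also named after their values were seen, reached the strength of promoters at several genes. An intron region 28052 bp downstream of the Tet2 TSS (chr3:133516132-133516543) gave 64.4 ± 9.32, 73.1 ± 9.05, 53.6 ± 8.51 and 60.98 ± 13.3 in the same group order, and a region 25325 bp upstream of Dnmt3a, in an exon of Dtnb (chr12:3781270-3782040), gave 63.6 ± 8.02, 68.4 ± 8.81, 56.5 ± 8.86 and 62.96 ± 10.5. A second upstream Kdm6b region within Dnah2, 36100 bp away (chr11:69451932-69452655), gave 56.5 ± 10.8, 53.5 ± 8.95, 58.02 ± 16.5 and 49.5 ± 24.2. These 3 had a peak in every list and no difference passed. An intergenic region 39908 bp from Hdac2 and one 5360 bp from Sirt4 were also common, at 24.5 ± 11.9, 18.6 ± 14.02, 27.7 ± 11.1 and 32.3 ± 18.3 and at 11.3 ± 6.46, 14.8 ± 7.69, 19.9 ± 7.04 and 15.2 ± 12.98.

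Kdm6b, Dnmt3a and Hdac7 had the most regions, with 12, 11 and 9, and their strongest regions are described here by choice after the values were seen. Kdm6b encodes a demethylase of the Polycomb mark, and its regions reached from 56606 bp upstream to 7408 bp downstream of the TSS, the farthest within introns of Dnah2. The strongest, 27348 bp upstream at chr11:69443250-69443834, had a strength of 83.5 ± 6.04 in Young Sham, 91.3 ± 4.88 in Young Bleo, 77.1 ± 12.4 in Aged Sham and 82.8 ± 14.7 in Aged Bleo. At Dnmt3a the strongest region lay 15026 bp upstream at chr12:3791707-3792201, with 96.4 ± 1.83, 95.3 ± 1.61, 84.9 ± 1.71 and 88.4 ± 6.89. At Hdac7 the promoter region and one 4218 bp downstream of a TSS (47.7 ± 8.40, 62.1 ± 3.67, 40.8 ± 15.3 and 53.5 ± 11.5) were the strongest.

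The first comparison asked where a peak was gained or lost with age without injury. In Aged Sham, 6 of the 141 regions were called less often than in Young Sham (4.26%) and 0 more often, at an unadjusted p of at most 0.05 in Fisher's exact test (two-sided). Over all 47338 regions, 4.90% were called less often and 0.264% more often, so the share among chromatin modifiers was near the background. No region of the genome passed Benjamini-Hochberg adjustment in any of the 4 comparisons, and the smallest p these group sizes allow is 0.00794. When single lists were left out, which also makes the test smaller, the count of 6 became 1 in 7 of 9 cases, 3 without Young Sham replicate 5 and 4 without Aged Sham replicate 4. The 6 regions lay at 5 genes, and 3 of them at Dnmt3a and its cofactor Dnmt3l.

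In an intron of Kdm4b, a demethylase gene, the region 31688 bp downstream of the TSS (chr17:56357519-56357957, shown above) had a peak in 5 of 5 Young Sham, 4 of 4 Young Bleo, 0 of 4 Aged Sham and 3 of 5 Aged Bleo lists (exact p = 0.00794 for Aged Sham). The called peaks were small, with 17, 19, 16, 19 and 12 fragments at the summit in Young Sham and 19, 12, 25 and 13 in Young Bleo. The Dnmt3a region 67970 bp upstream (chr12:3738718-3739302, in an intron of Dtnb) was called in 4 of 5 Young Sham lists, with 13, 16, 12 and 14 fragments, and in none of the 13 other lists (exact p = 0.0476 for Aged Sham). A region 2430 bp downstream of the Kdm3b TSS (chr18:34779320-34779555, intron) had the same pattern. It was called in 4 of 5 Young Sham lists, with 41, 31, 32 and 35 fragments, and in none elsewhere (exact p = 0.0476). This Dnmt3a region and this Kdm3b region met the rule for consensus regions only through Young Sham lists. Their p-values against Young Sham, here and below, are therefore given as description only.

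The other 3 regions kept a peak in part of the aged lists. Dnmt3l, which encodes a cofactor without catalytic activity, had a region 14005 bp upstream (chr10:78028083-78028481) called in 5 of 5 Young Sham, 3 of 4 Young Bleo, 1 of 4 Aged Sham and 2 of 5 Aged Bleo lists. The region 3818 bp upstream of a TSS in an intron of Dnmt3a (chr12:3887657-3888195) was called in 5, 4, 1 and 2 lists of these groups. The Hdac9 intron region 185525 bp upstream of a TSS of that gene (chr12:34713910-34714917) was called in 5, 4, 1 and 4 lists. Each had an exact p of 0.0476 for Aged Sham against Young Sham. In all 3, the single Aged Sham list with a peak was replicate 4, the one with the highest background coverage of its group and the one from lane 6. Where peaks had to cover 50% of a region, the calls at Kdm4b, Kdm3b and Dnmt3l held (exact p = 0.00794, 0.0476 and 0.0476). The Dnmt3a region 67970 bp upstream was then called in 3, 0, 0 and 0 lists (exact p = 0.167, also against both Bleo groups), the Hdac9 region in 2, 2, 0 and 0 (exact p = 0.444) and the Dnmt3a region 3818 bp upstream in 1, 4, 1 and 0 (exact p = 1.00), so that these calls were lost.

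The second comparison asked what bleomycin changed in young mice. In Young Bleo, 2 of the 141 regions were called less often than in Young Sham (1.42%, against 1.96% of all regions) and 2 more often (1.42%, against 3.98%). The count of 4 in both directions became 0 in 6 of 9 cases and at most 2 when single lists were left out. The regions called less often were those upstream of Dnmt3a and in Kdm3b described above, each with 0 of 4 Young Bleo lists (exact p = 0.0476). The gained regions were an Hdac11 intron region 8587 bp downstream of the TSS (chr6:91165274-91165530) and an Hdac9 intron region 163613 bp upstream of a TSS (chr12:34692381-34692622). Both were called in 0 of 5 Young Sham, 3 of 4 Young Bleo, 0 of 4 Aged Sham and 1 of 5 Aged Bleo lists (exact p = 0.0476), with 12, 14 and 15 fragments in Young Bleo at Hdac11 and 15, 11 and 17 at Hdac9. Neither would have met the rule of 2 or more lists without Young Bleo, so these p-values too are given as description only.

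The last comparisons concerned aged mice after bleomycin. Against Young Sham, 2 regions were called less often in Aged Bleo (1.42%, against 3.01% of all regions), again the upstream Dnmt3a and the Kdm3b region (exact p = 0.0476 each), and 0 more often (against 0.201%). The comparisons with Young Sham share the same Young Sham lists, the only lists with these peaks. The return of these 2 regions is therefore no independent result. Against Aged Sham, 0 of 141 were called less often and 0 more often in Aged Bleo, where 0.410% and 0.475% of all regions were, and limma on strength with absent peaks at 0 gave 12 of 141 at an unadjusted p of at most 0.05, against 9.29% of all regions. The tile plot of fragments shows the 8 distinct regions called in any comparison.

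The 7 Hdac9 regions were all weak and variable, and those named here were chosen after their values were seen. Besides the region 163613 bp upstream, the regions 90035 bp and 193953 bp downstream of a TSS had no peak in the 9 Sham lists. They were called in 2 and 2 of 4 Young Bleo and 3 and 1 of 5 Aged Bleo lists, and did not pass (exact p = 0.167 and 0.167 for Young Bleo against Young Sham, and 0.167 and 1.00 for Aged Bleo against Aged Sham). The Kdm6b promoter and the farthest upstream Kdm6b region were each called in 2 of 5 Aged Bleo lists and no other (exact p = 0.444 against Young Sham). The regions tested here met the rule of 2 or more lists only through Bleo lists. These p-values too are therefore given as description only.

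**Figure D3:**
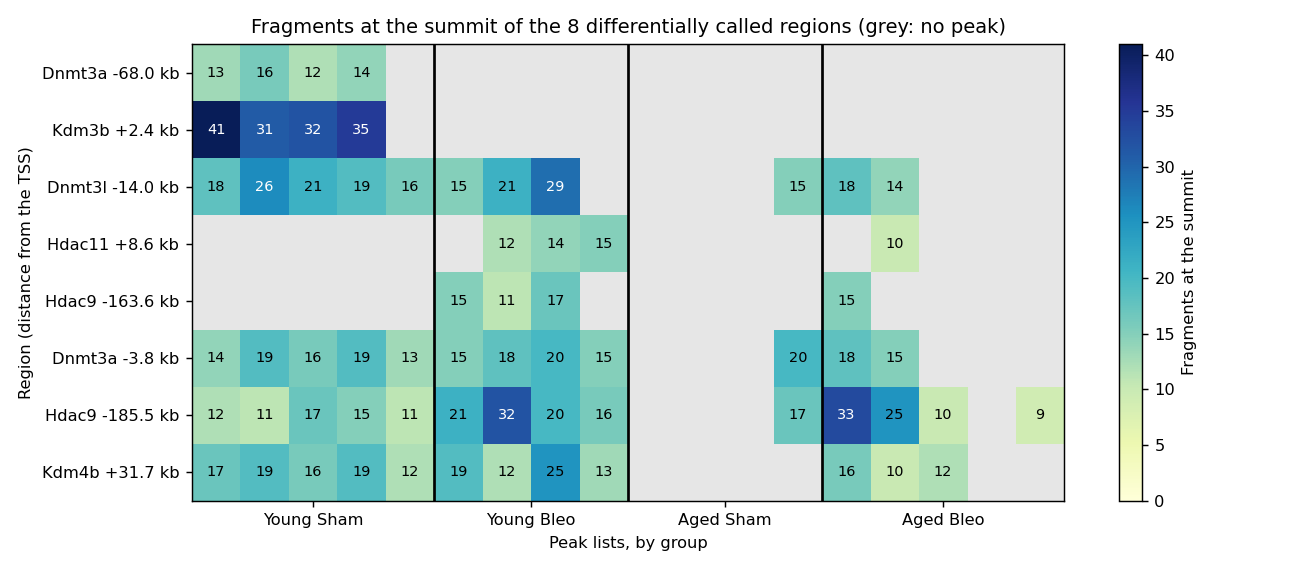
Fragments at the peak summit (number and colour) at the 8 regions called in at least 1 presence comparison (rows) in the 18 lists (columns, by group); grey marks no peak. The Kdm3b peaks hold 31 to 41 fragments and those of the other 7 regions 9 to 33, and the Dnmt3a region 67970 bp upstream and the Kdm3b region are filled only in Young Sham.

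The calls at these 8 regions were not kept with lists of equal length. When each list was reduced to its 21050 strongest peaks, the length of the shortest list, each of the 8 regions kept a peak in at most 1 list of a group and none passed the test. In these lists 91 regions belonged to chromatin modifier genes, and other members passed, which were named after their values were seen. Of the 91, 2 were called less often in Aged Sham than in Young Sham and 1 more often (against 1.56% and 1.36% of all regions), 4 less often and 0 more often in Young Bleo (against 3.19% and 3.66%), 3 less often and 0 more often in Aged Bleo than in Young Sham (against 1.97% and 1.09%) and 1 less often and 0 more often in Aged Bleo than in Aged Sham (against 0.937% and 0.542%). In an intron of Kmt2c, a methyltransferase of enhancers, the region 62507 bp downstream of the TSS (chr5:25436120-25436432) had a peak in 5 of 5 Young Sham lists and 1 list of each other group (exact p = 0.0476 against each). The Kdm4b region 24844 bp downstream (chr17:56350653-56351135) had one in 5 Young Sham lists, 1 Young Bleo list and none of the aged lists (exact p = 0.0476 for Young Bleo and 0.00794 for both aged groups). The region 47352 bp upstream of Dnmt3a (chr12:3759423-3759832) had one in 5, 1, 2 and 1 lists of these groups and passed for both Bleo groups against Young Sham (exact p = 0.0476). A Kdm4b region 11333 bp downstream was called less often in Young Bleo than in Young Sham (4 Young Sham and 0 Young Bleo lists). A Kdm6b intron region centred 5607 bp downstream was called more often in Aged Sham than in Young Sham (3 and 0 lists). The Sirt4 promoter was called less often in Aged Bleo than in Aged Sham (1 and 4 lists). Each had an exact p of 0.0476. Before this reduction, the Kmt2c region had a peak in all 4 Young Bleo and all 5 Young Sham lists. It also had one in 3 Aged Bleo and 2 Aged Sham lists (exact p = 0.444 and 0.167 against Young Sham). The Sirt4 promoter had one in 4 Aged Bleo and 4 Aged Sham lists. The wider Kdm6b region had one in 4 Aged Sham and 4 Young Sham lists. Calls here thus show rank within a list, and not by themselves loss or gain of a peak. At the Dnmt3a region 47352 bp upstream, strength was 46.5, 34.02, 45.5, 43.4 and 25.6 in Young Sham, 0, 1.60, 5.56 and 26.7 in Young Bleo, 15.4, 9.19, 8.36 and 4.78 in Aged Sham and 8.70, 14.04, 5.31, 0 and 9.85 in Aged Bleo. The Young Bleo value of 26.7 came from the list of lane 8, the lane of all Young Sham lists, and was the highest of its group. At the Kmt2c region the same list was the lowest of its group, with a strength of 3.36 beside 6.05, 15.4 and 7.74.

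Strength was then compared at the 68 common regions with limma, with p-values adjusted by Benjamini-Hochberg over all 17432 common regions. Between Aged Bleo and Young Sham, 7 of 68 regions were stronger in Aged Bleo (10.3%, against 5.75% of all common regions) and 1 weaker (1.47%, against 4.81%). Between Aged Sham and Young Sham, 1 was stronger (1.47%, against 0.620%) and 0 weaker (against 0.591%). Between Young Bleo and Young Sham, 0 were stronger (against 1.18%) and 1 weaker (against 1.57%). Between Aged Bleo and Aged Sham, 0 were stronger (against 0.189%) and 0 weaker (against 0.155%). The count of 8 between Aged Bleo and Young Sham became 5, 3, 4 and 5 without Young Sham replicates 1, 2, 3 and 4, and 5 and 4 without Aged Bleo replicates 4 and 5. At an unadjusted p of at most 0.05 the counts of stronger and weaker regions were 12 and 4 between Aged Bleo and Young Sham (against 15.01% and 12.6% of all common regions), 7 and 4 between Aged Sham and Young Sham (against 8.23% and 7.66%), 3 and 2 between Young Bleo and Young Sham (against 8.52% and 8.90%) and 8 and 1 between Aged Bleo and Aged Sham (against 7.82% and 8.04%). With lane as a term in limma, 0 of 68 regions passed in each of the 4 comparisons, and 0 of all 17432 common regions passed. In that fit 5 of 68 had an unadjusted p of at most 0.05 between Aged Bleo and Young Sham (against 8.11% of all common regions), 7 between Aged Sham and Young Sham (against 7.79%), 4 between Young Bleo and Young Sham (against 7.12%) and 3 between Aged Bleo and Aged Sham (against 8.08%). Aged Bleo and Young Sham share no lane. Between them, lane and group are separated only through the few Young Bleo and Aged Sham lists that link the lanes. With background coverage as a term, 3 of 68 passed between Aged Bleo and Young Sham (4.41%, against 2.81% of all common regions) and 0 in the comparisons of Aged Sham (against 0.103%) and Young Bleo (against 2.22%) with Young Sham. With log2 fragments at the summit in place of strength, 17 of 68 passed between Aged Bleo and Young Sham (25%, against 28.6% of all common regions), 5 between Aged Sham and Young Sham (7.35%, against 6.78%), 6 between Young Bleo and Young Sham (8.82%, against 13.5%) and 9 between Aged Bleo and Aged Sham (13.2%, against 14.5%). These shares were near or below the background.

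The median difference of the 68 regions between Aged Bleo and Young Sham was 2.31 percentile points, against 0.343 over all common regions, and 44 of 68 were higher (64.7%, against 52.2% of all common regions and 55.7% of common promoter regions). Between Aged Sham and Young Sham it was 1.17 points (all regions 0.434), between Young Bleo and Young Sham 0.387 (all regions -0.0295) and between Aged Bleo and Aged Sham 2.15 (all regions 0.110). By family, 18 of 21 KDM regions were higher in Aged Bleo than in Young Sham (85.7%, beside the same 52.2%), with a median difference of 4.02 points. Among class IIa deacetylase regions 6 of 8 were higher (75%), with a median of 6.57. Regions of a family are not all separate loci. Of the 21 KDM regions 6 lay at Kdm6b, and of the 8 class IIa regions 4 lay at Hdac7 and 3 at Hdac4. The medians were 5.67 for the 5 regions of Ezh1 and Ezh2, 4.60 for 4 class I deacetylase regions, 1.11 for 7 KMT regions, 0.270 for 6 DNA methyltransferase regions, -0.791 for 2 class IIb deacetylase regions, -1.27 for 6 sirtuin regions and -3.43 for 7 TET regions. The single common regions of Hdac11 (class IV) and Dnmt3aos differed by -9.31 and -10.4 points.

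**Figure D4:**
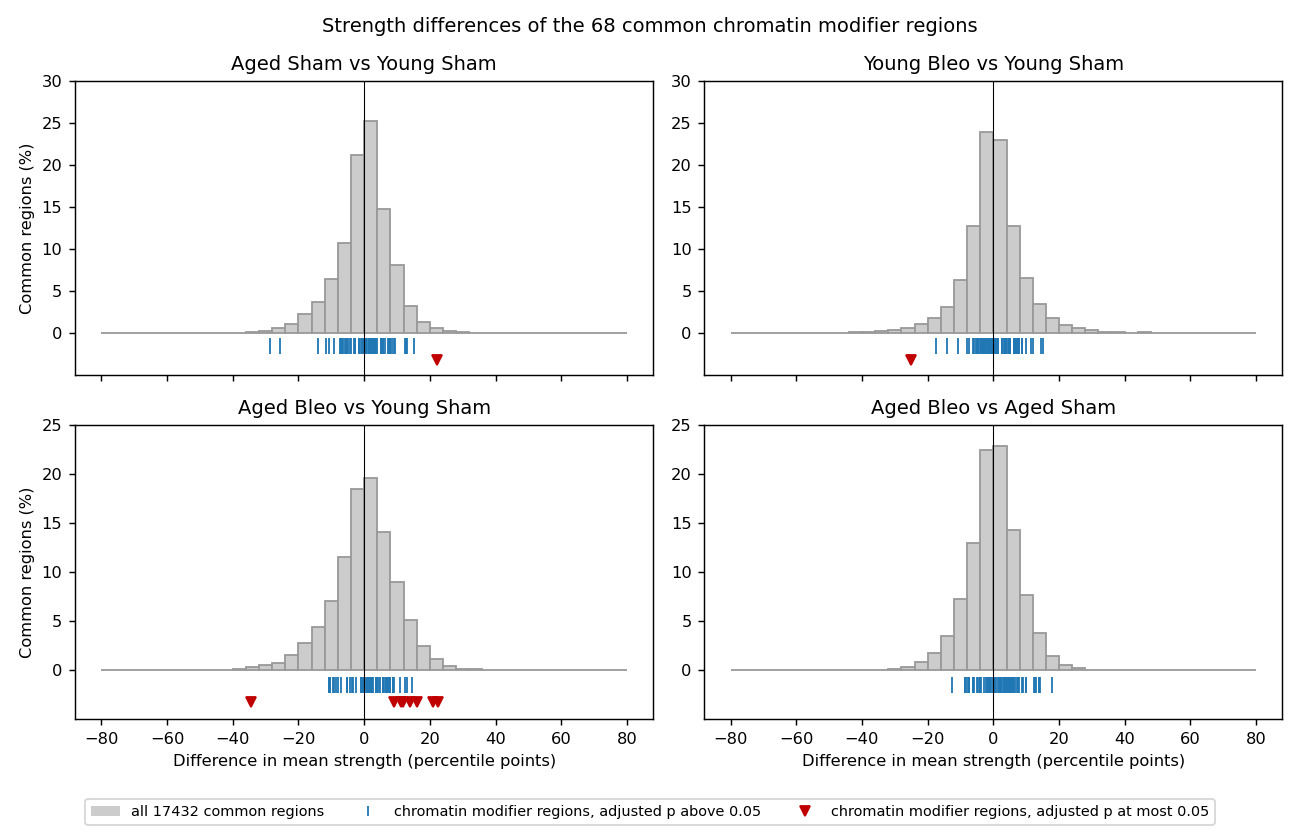
Difference in mean strength (horizontal axis, percentile points, first minus second group) at the 68 common chromatin modifier regions in the 4 comparisons, over a histogram of all 17432 common regions (vertical axis, % of regions per bin). Blue ticks are regions with an adjusted p above 0.05 and red triangles the 1, 1, 8 and 0 regions at or below it.

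At Tet1, a gene for an enzyme that oxidises methylated cytosine, the intron region 21872 bp downstream of the TSS (chr10:62865211-62865693, shown above) was strongest in Young Sham. Its strength was 55.4, 32.8, 45.03, 51.7 and 36.6 in Young Sham, 1.40, 13.6, 23.5 and 37.98 in Young Bleo, 24.3, 16.1, 20.1 and 13.6 in Aged Sham and 13.7, 0.620, 7.08, 8.78 and 18.8 in Aged Bleo. The Young Sham and the aged groups did not overlap, and 1 Young Bleo list lay among the Young Sham values. It fell by 34.5 points in Aged Bleo (SE 5.90, limma adjusted p = 0.00323) and fell by 25.2 in Young Bleo (SE 6.26, limma adjusted p = 0.0424), and the difference was -25.7 points in Aged Sham (SE 6.26, limma adjusted p = 0.0548). The fragments at its summit were 47, 41, 42, 42 and 28 in Young Sham and 23, 10, 14, 11 and 17 in Aged Bleo.

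The Tet1 values were compared within lanes, which hold few lists. The Young Bleo list of lane 8 stood at 37.98, beside a mean of 44.3 in the 5 Young Sham lists of that lane, and the 3 Young Bleo lists of lane 7 had a mean of 12.8, beside 20.2 in 3 Aged Sham lists. With lane as a term the difference was -2.71 points in Aged Bleo (limma adjusted p = 0.982), -6.31 in Young Bleo (limma adjusted p = 0.981) and turned to 1.07 in Aged Sham (limma adjusted p = 0.994). The part of lane in the Tet1 differences was not tested beyond this fit. For Aged Bleo, which shares no lane with Young Sham, the fit rests on the few Young Bleo and Aged Sham lists that link the lanes. The Young Bleo call was also lost with quantile-normalised log2 fold enrichment (limma adjusted p = 0.123) and with replicate number as a block (limma adjusted p = 0.0747). It was lost in 6 of 9 fits that each left out 1 list, the largest limma adjusted p being 0.136. These 6 lists were Young Sham replicates 1, 3 and 4 and Young Bleo replicates 1, 2 and 3.

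The Hdac7 promoter (chr15:97831099-97831966, centred 38 bp upstream of a TSS) was stronger in both aged groups. Strength was 27.95, 25.7, 45.4, 31.4 and 34.2 in Young Sham, 46.3, 45.8, 32.6 and 53.1 in Young Bleo, 54.7, 52.3, 61.9 and 51.8 in Aged Sham and 55.7, 54.9, 50.8, 54.3 and 53.9 in Aged Bleo. Every aged value exceeded every Young Sham value, and Young Bleo overlapped both. The difference from Young Sham was 22.3 points in Aged Sham (SE 4.07, limma adjusted p = 0.0209) and 20.99 in Aged Bleo (SE 3.84, limma adjusted p = 0.00419), and it was 11.5 in Young Bleo, which did not pass (limma adjusted p = 0.147). The 1 Young Bleo list of lane 8 stood at 53.1, above all Young Sham lists of that lane. Within lane 7, the 3 Aged Sham lists had a mean of 56.3 and the 3 Young Bleo lists 41.6. With lane as a term the differences were 34.9 and 37.1 points, and neither passed (limma adjusted p = 0.263 and 0.393). The Aged Sham call was lost without Young Sham replicate 2 or without Aged Sham replicate 3 (largest limma adjusted p = 0.0580).

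Both other class IIa promoters among the common regions lay higher on average in Aged Bleo. The Hdac5 promoter (chr11:102229854-102230571) ranged over 64.3 to 75.9 in Young Sham and 77.9 to 92.7 in Aged Bleo and rose by 13.9 points (SE 3.90, limma adjusted p = 0.0340). It lies beyond the 5 regions that the naming rule takes, and it and the Hdac4 promoter were named after their values were seen. The Hdac4 promoter had strengths of 63.3 ± 3.01 and 69.8 ± 5.68 and did not pass (limma adjusted p = 0.222).

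Kdm6b had 2 regions that were stronger in Aged Bleo. The region 2773 bp upstream (chr11:69418687-69419247, intergenic, shown above) had strengths of 22.2, 17.6, 22.7, 27.3 and 19.97 in Young Sham, 32.5, 25.1, 27.3 and 31.8 in Young Bleo, 35.2, 30.8, 38.2 and 21.7 in Aged Sham and 40.4, 38.6, 42.7, 54.7 and 46.4 in Aged Bleo. Aged Bleo lay above all other lists, and Young Bleo and Aged Sham lay between with overlap. It rose by 22.6 points over Young Sham (SE 3.40, limma adjusted p = 0.00170), and the difference from Aged Sham was 13.1 (SE 3.61, limma adjusted p = 0.0965). The intron region 6487 bp downstream (chr11:69409336-69410077) was weaker, with 4.98, 4.25, 7.71, 5.46 and 7.93 in Young Sham and 13.4, 6.74, 15.7, 24.9 and 26.4 in Aged Bleo, and rose by 11.4 points (SE 3.14, limma adjusted p = 0.0315). The single Aged Sham list of lane 6, the lane of all Aged Bleo lists, stood at 21.7 and 5.76 at these regions, below every Aged Bleo list. The intron call was lost in 6 of 10 fits that each left out 1 list (Young Sham replicates 1 to 4, Aged Bleo replicates 4 and 5). With lane as a term the upstream difference was 39.2 points (limma adjusted p = 0.319). The other 4 common Kdm6b regions did not pass.

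Among other demethylases, the promoter of Kdm3a (chr6:71632507-71633666, shown above) had strengths of 49.2, 37.2, 47.6, 42.9 and 48.2 in Young Sham, 53.6, 41.3, 48.2 and 40.3 in Young Bleo, 56.4, 48.1, 56.1 and 44.6 in Aged Sham and 51.8, 57.2, 59.2, 67.6 and 70.1 in Aged Bleo. Aged Bleo and Young Sham did not overlap, and the rise was 16.2 points (SE 3.88, limma adjusted p = 0.0174), lost without Young Sham replicate 2 (limma adjusted p = 0.0504). A Kdm8 region 236 bp downstream of the TSS (chr7:125444418-125445294, intron) had 55.3, 57.95, 58.97, 65.6 and 61.5 in Young Sham and 76.4, 62.1, 66.8, 75.5 and 77.9 in Aged Bleo, which overlap, and rose by 11.9 points (SE 3.30, limma adjusted p = 0.0325). That call was lost with quantile-normalised log2 fold enrichment and in 6 of 10 fits that left out 1 list (Young Sham replicates 1 to 3, Aged Bleo replicates 1, 4 and 5). With lane as a term the Kdm8 difference was 6.98 points (limma adjusted p = 0.878). In lane 6 the single Aged Sham list stood at 70.4, beside an Aged Bleo mean of 71.7. The X-linked Kdm6a promoter (chrX:18161975-18162928) ranged over 71.04 to 79.3 in Young Sham and 78.8 to 88.9 in Aged Bleo, which overlap, and rose by 9.22 points (SE 2.83, limma adjusted p = 0.0475). It too was named after its values were seen, and the sexes of the mice are not in the labels.

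**Figure D5:**
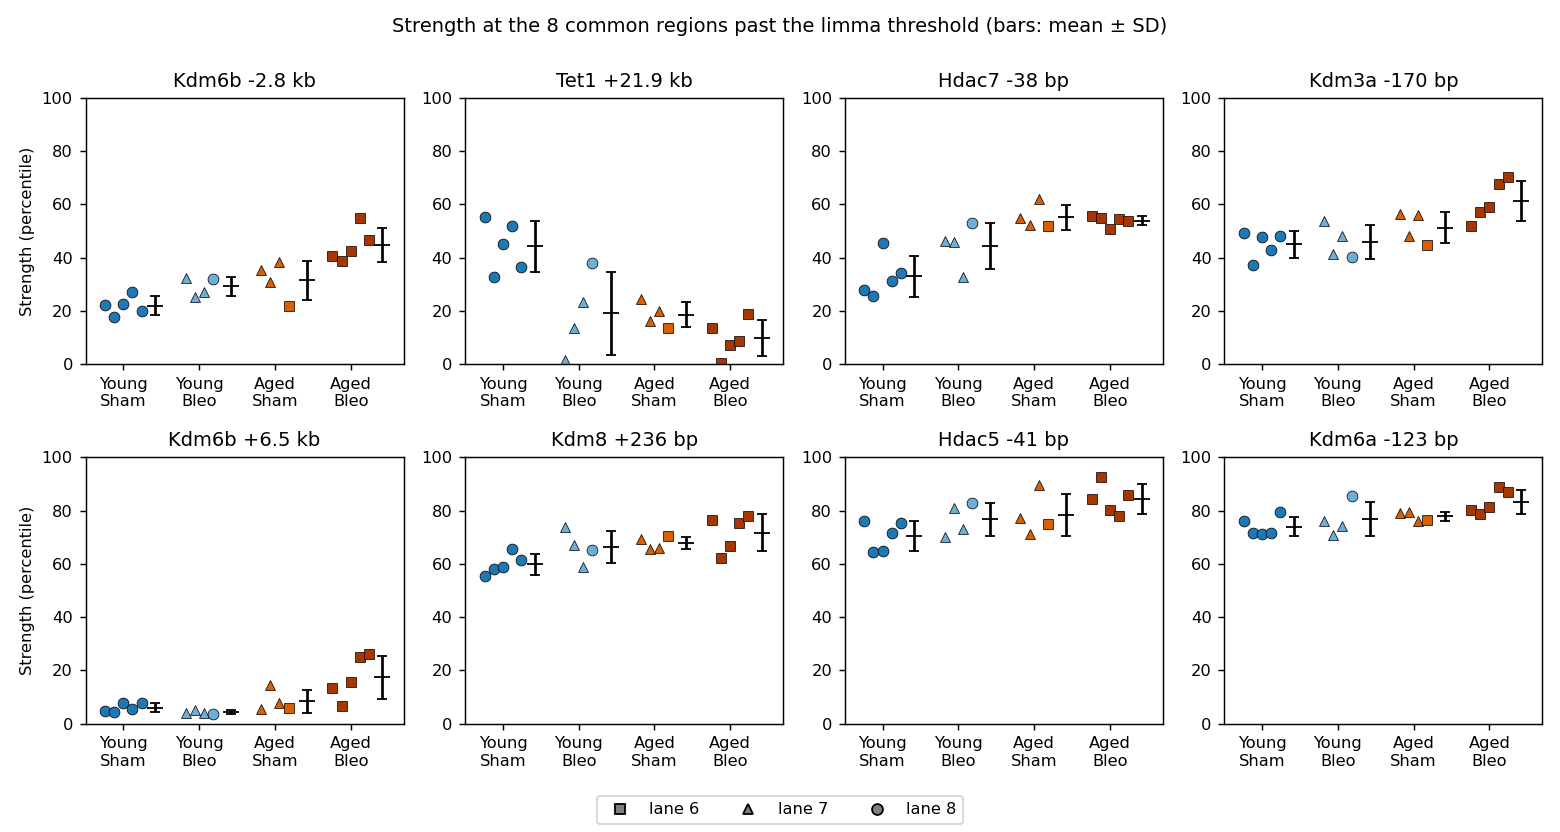
Strength (vertical axis, percentile from 0 to 100) at the 8 common regions with an adjusted p of at most 0.05 in at least 1 comparison, by group; each point is 1 list, its shape gives the lane code of the list, and bars give mean ± SD. Tet1 is highest in Young Sham (32.8 to 55.4), and the other 7 regions have their highest mean in Aged Bleo or, for Hdac7, in Aged Sham.

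Further regions were taken by the naming rule although they did not pass. The strong Dnmt3a region 15026 bp upstream had strengths of 95.4, 96.3, 96.98, 99.2 and 94.4 in Young Sham, 95.2, 97.1, 95.6 and 93.2 in Young Bleo, 85.9, 85.7, 82.3 and 85.6 in Aged Sham and 93.2, 96.8, 89.2, 80.8 and 82.2 in Aged Bleo. Aged Sham lay below every young list, and the difference from Young Sham was -11.5 points (SE 2.80, limma adjusted p = 0.0548). The Kmt5a promoter (chr5:124439495-124440384), of a histone methyltransferase active in cell division, differed by 12.1 points between Young Bleo and Young Sham (SE 4.69, limma adjusted p = 0.189), and Young Bleo lay above every Young Sham list. With lane as a term the Kmt5a difference was 6.44 points (limma adjusted p = 0.961). Between Aged Bleo and Aged Sham, the Kmt2a promoter (chr9:44880974-44881836) differed by 12.5 points (SE 3.74, limma adjusted p = 0.120), the Sirt1 region by -5.87 (SE 2.60, limma adjusted p = 0.280) and the Kdm5b region 3231 bp upstream by -7.53 (SE 3.95, limma adjusted p = 0.370). With lane as a term these differences were 2.78, -3.35 and 0.591 points (limma adjusted p = 0.931, 0.877 and 0.994). In lane 6 the Kmt2a promoter stood at 81.2 in the single Aged Sham list, beside an Aged Bleo mean of 83.98.

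Whether the response to bleomycin differed between ages was tested as an interaction, a test added after the data were seen. Of the 68 regions 0 passed, with 4 at an unadjusted p of at most 0.05 (5.88%, against 9.12% of all common regions), and 1 of all 17432 common regions passed (0.00574%). The smallest p was at a region 17019 bp upstream of Tet3 (chr6:83473137-83473684), named after its values were seen, where strength was 51.97, 55.9, 40, 54.1 and 39.8 in Young Sham, 25.2, 38.3, 24.7 and 35.6 in Young Bleo, 12.1, 26.2, 13.9 and 26.8 in Aged Sham and 19.9, 12.1, 49.1, 48.8 and 57.7 in Aged Bleo. Aged Sham lay below every Young Sham list, and their difference was -28.6 points (SE 7.93, limma adjusted p = 0.0859). The bleomycin difference was 35.2 points higher in aged than in young mice (limma adjusted p = 0.375).

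A list of 48 partner genes, such as PRC2 and corepressor subunits, chromodomain remodellers, acetyltransferases and further methyltransferases, was examined in the same way. It had 123 regions at 47 genes, 68 of them common. In presence, 5, 0, 2 and 0 regions were called less often and 0, 4, 0 and 0 more often in the comparisons of Aged Sham, of Young Bleo and of Aged Bleo with Young Sham and of Aged Bleo with Aged Sham. Over all regions the shares were 4.90%, 1.96%, 3.01% and 0.410% less often and 0.264%, 3.98%, 0.201% and 0.475% more often. In strength, 0, 1, 2 and 0 of 68 regions were weaker and 0, 1, 8 and 1 stronger in these comparisons (over all common regions 0.591%, 1.57%, 4.81% and 0.155% weaker and 0.620%, 1.18%, 5.75% and 0.189% stronger), and the median difference between Aged Bleo and Young Sham was 3.14 points. The partner regions named next were chosen after their values were seen. Chd3, a helicase subunit of the NuRD complex that also holds Hdac1 and Hdac2, had an intron region (chr11:69366308-69366915) with a mean strength of 19.7 in Young Sham, 33.5 in Young Bleo, 23.7 in Aged Sham and 43.4 in Aged Bleo. It was stronger in Young Bleo and Aged Bleo than in Young Sham and in Aged Bleo than in Aged Sham (limma adjusted p = 0.0305, 5.43e-04 and 0.0287). The promoter of Jarid2, a PRC2 cofactor, rose by 27.1 points in Aged Bleo over Young Sham (SE 5.50, limma adjusted p = 0.00746), and that of the acetyltransferase Ep300 by 16.7 (SE 3.67, limma adjusted p = 0.0111). The promoter of Rbbp5, a core subunit of Kmt2 complexes, fell by 34.1 (SE 6.59, limma adjusted p = 0.00602). With lane as a term no common region passed in any comparison, so these partner calls were lost as well.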

How the data were processed

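Open chromatin was measured by Omni-ATAC-seq in sorted mouse lung ECs, 1 library per mouse. According to the study's methods and processing notes, the authors aligned the reads with BWA to mm10, removed duplicates and called narrow peaks with MACS2 in each library separately at a false discovery rate of 1%. The deposited lists give, for each peak, its position, a fold enrichment over local background (a ratio), and p- and q-values as −log10, all made by the authors' peak caller. The differential binding analysis of the study needs read counts and was not repeated here.

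On chromosomes 1 to 19, X and Y, peaks that shared at least 1 bp were merged, and 19 mitochondrial peaks were left out. Annotation used 45756 RefSeq transcripts of GRCm38.p6. Groups came from the sample labels. The number of fragments at a summit was solved from fold enrichment and p-value together, and at least 99.98% of peaks with a −log10 p below 250 gave a whole number within 0.05. Presence was tested per region with Fisher's exact test (two-sided, scipy 1.17.1) at an unadjusted p of at most 0.05. Strength was tested with limma 3.58.1 under R 4.3.3 on all 18 lists in one fit, with Benjamini-Hochberg adjustment over all 17432 common regions at 0.05. Tables were handled with Python 3.11.15, numpy 2.4.6 and pandas 2.3.3, and figures drawn with matplotlib 3.10.9. The fits were tested on simulated data. The limma p-values weigh a group difference against the spread between mice within groups, estimated over all 4 groups together. Those of Fisher's exact test rest on counts of lists alone. The number of mice limits the precision of both.

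Regions named in the text were all those called in presence (at most 10 per comparison), up to 5 per direction and comparison with the smallest limma p among those past the threshold or the 2 smallest where none passed, and the promoter regions of a fixed list of genes; exceptions are marked. The member genes, the partner list and the marker lists were chosen with earlier results of these data known. Alternatives used lists of equal length, stricter peaks, other region rules, other scales of strength, lane, background coverage or replicate number as terms, and leaving out each list in turn.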

Additional observations from a re-analysis of the deposited data

Results flagged for a closer look

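Single lists were compared with the rest of their group at the named regions in 48 tests of the gap between an extreme value and its nearest neighbour, and chance alone marks about 1 in 20 such groups. At 2 regions a result was marked because 1 list lay far from the others. At the Kmt5a promoter (chr5:124439495-124440384), Aged Bleo replicate 4 had a strength of 59.6, and the highest Aged Bleo list reached 80.5. Aged Bleo replicate 4 also had the fewest peaks of all 18. At the Dnmt3a region 15026 bp upstream (chr12:3791707-3792201), Aged Sham replicate 3 had a strength of 82.3, and the highest of the other Aged Sham lists reached 85.9, so that the marked gap lies within a narrow group.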

How the results depend on the processing

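Counts are given in the order Aged Sham, Young Bleo and Aged Bleo against Young Sham, then Aged Bleo against Aged Sham. The presence counts of 6, 4, 2 and 0 became 3 and 1 of 91 in the first and last comparison with lists of equal length (3.30% and 1.10%, against 2.92% and 1.48% of all regions under the same rule). They were 3, 2 and 1 of 135 in the first 3 comparisons when only peaks at a −log10 q of 5 or more were used (2.22%, 1.48% and 0.741%, against 5.42%, 6.28% and 3.24%), and 2, 1 and 0 of 127 for a fold enrichment of at least 5 (1.57%, 0.787% and 0%, against 4.58%, 6.12% and 2.86%). Where peaks had to cover 50% of a region, 6 were called between Aged Bleo and Young Sham (4.26%, against 5.94%) and 1 between Aged Bleo and Aged Sham (0.709%, against 1.17%). A limma fit on all regions with absent peaks at 0 gave 21, 20, 25 and 12 of 141 at an unadjusted p of at most 0.05 (14.9%, 14.2%, 17.7% and 8.51%), near or below the 13.2%, 18.5%, 19.2% and 9.29% of all regions. Leaving out single lists gave 1 to 4, 0 to 2, 2 to 5 and 0 to 0 calls. Equal lists have fewer peaks by construction, and for the other settings the cause was not tested.

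The strength counts of 1, 1, 8 and 0 became 5, 6, 17 and 9 with log2 fragments, and 0, 0 and 0 in the first 3 comparisons with lane as a term. With background coverage as a term they were 0, 0 and 3. The Young Bleo count was 0 with log2 fold enrichment after quantile normalisation or median centring and 0 with the upper 75% of common regions. Leaving out single lists gave 0 to 1, 0 to 1, 3 to 9 and 0 to 0 calls. Reversed differences were those of Dnmt3a 3818 bp upstream in presence at 50% coverage (5 percentage points between Aged Sham and Young Sham), Tet1 between Aged Sham and Young Sham with lane (1.07 points) and Kdm5b between Aged Bleo and Aged Sham with lane (0.591 points), and the cause was not tested.

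The labels do not say whether replicate numbers pair the mice, and residual correlations alone cannot settle it. Residuals of lists with the same number had a mean correlation of 0.0295 (-0.193 to 0.335, 25 pairs). For different numbers it was -0.00765 (-0.345 to 0.347, 96 pairs). With the replicate number as a block, strength calls were 2, 0, 7 and 0 of 68 (2.94%, 0%, 10.3% and 0%, against 1.38%, 1.87%, 10.3% and 0% of all common regions) and the presence alternative in limma gave 23, 19, 28 and 12 of 141 (16.3%, 13.5%, 19.9% and 8.51%, against 13.9%, 17.6%, 19.7% and 9.29% of all regions). The Dnmt3a region 15026 bp upstream passed with the block (limma adjusted p = 0.0493 between Aged Sham and Young Sham), and the Tet1 call in Young Bleo did not (limma adjusted p = 0.0747).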
